A study of Mus musculus with 8 samples.

Results

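The genes described here encode the core proteins of the spliceosomal snRNPs, and 49 of 21883 protein-coding genes were chosen by symbol. The rule took every RefSeq protein-coding gene (assembly GRCm38.p6) whose symbol starts with Prpf, Sf3a, Sf3b, Snrp or Lsm plus a number, added U2af1, U2af2 and Sf1, and left out Snrpn. The rule itself uses symbols and no measured value. The 49 genes lie on 15 chromosomes and have a median length of 14252 bp. The rule also admits LSm proteins that work outside the spliceosome, which are kept as a class of their own. Genes with Snrnp symbols, such as Snrnp200, fall outside it.

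The spliceosome removes introns from pre-mRNA and is built from the U1, U2, U4, U5 and U6 snRNPs, particles of a small nuclear RNA and proteins. U1 binds the 5′ splice site, SF1 and U2AF bind the branch point and the 3′ splice site, and U2 then takes over the branch point. The U4/U6 and U5 particles join as a tri-snRNP, and U4 is released before catalysis. H3K36me3, trimethylation of lysine 36 of histone H3, is placed by SETD2 as it travels with elongating RNA polymerase II, and so marks the bodies of transcribed genes. Spliceosome genes are transcribed in nearly all dividing cells.

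H3K36me3 was profiled by ChIP-seq in feeder-free mouse embryonic stem cells grown as spheres in 2i medium (1 µM of the MEK inhibitor PD0325901 and 3 µM of the GSK3 inhibitor CHIR99021) with 1000 U/ml LIF. All cells carried the doxycycline-inducible Setd2 knockdown. Control cells were labelled Dox - and knockdown cells received 1 µg/ml doxycycline for 4 days, so doxycycline itself and the loss of Setd2 cannot be told apart. Each condition had 2 ChIP and 2 input libraries, merged by the authors into 1 peak list, and nothing in the labels says whether replicates were separate cultures.

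After duplicate removal, 36244210 control and 29416169 knockdown ChIP tags were left for peak calling, with 35134297 and 33403964 input tags. The lists held 30634 and 3040 peaks. There was no replicate spread and hence no test between conditions, and a missing peak means only that the caller's threshold was not reached at this depth. Of 10 embryonic stem cell markers 9 were covered over at least 10% of their length in control, the exception being Dppa5a at 0. None of 6 fibroblast, 4 primitive endoderm, 3 hepatocyte or 3 blood markers had any coverage, while Nes and Sox1 of 3 neuroectoderm markers did, up to 38.1%. Setd2 transcript and protein were not measured in these files.

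Nearly every core spliceosome gene was marked in control cells, and most had no peak after knockdown. In control, 46 of the 49 genes (93.9%, 95% interval 83.1 to 98.7) were covered over at least 10% of their length, where 35.6% of all protein-coding genes were. The median covered share was 69.7%, with a range of 0 to 96.3%, against a median of 0 over all genes. At least 50% of the length was covered in 35 of them, compared with 17% of all genes. Counting any covered base pair, the same 46 genes were marked, beside 44.8% of all genes.

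After knockdown 39 of the 49 genes had no base pair under a peak. Coverage of at least 10% was left in 6 (12.2%, 4.63 to 24.8), namely Prpf8, Sf3a1, Snrpb, Prpf38b, Sf1 and Sf3b2, where 1.71% of all protein-coding genes reached it. A further 4 genes, Prpf4, Snrpa1, Sf3b1 and Sf3b3, had between 4.09% and 9.70% of their length under a knockdown peak. Any knockdown coverage was thus seen in 10 of 49 genes, beside 5.17% of all genes. Only Prpf8 stayed covered over at least 50%, as did 0.165% of all genes. The median knockdown covered share was 0 both in the 49 genes and in all genes.

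**Figure D1:**
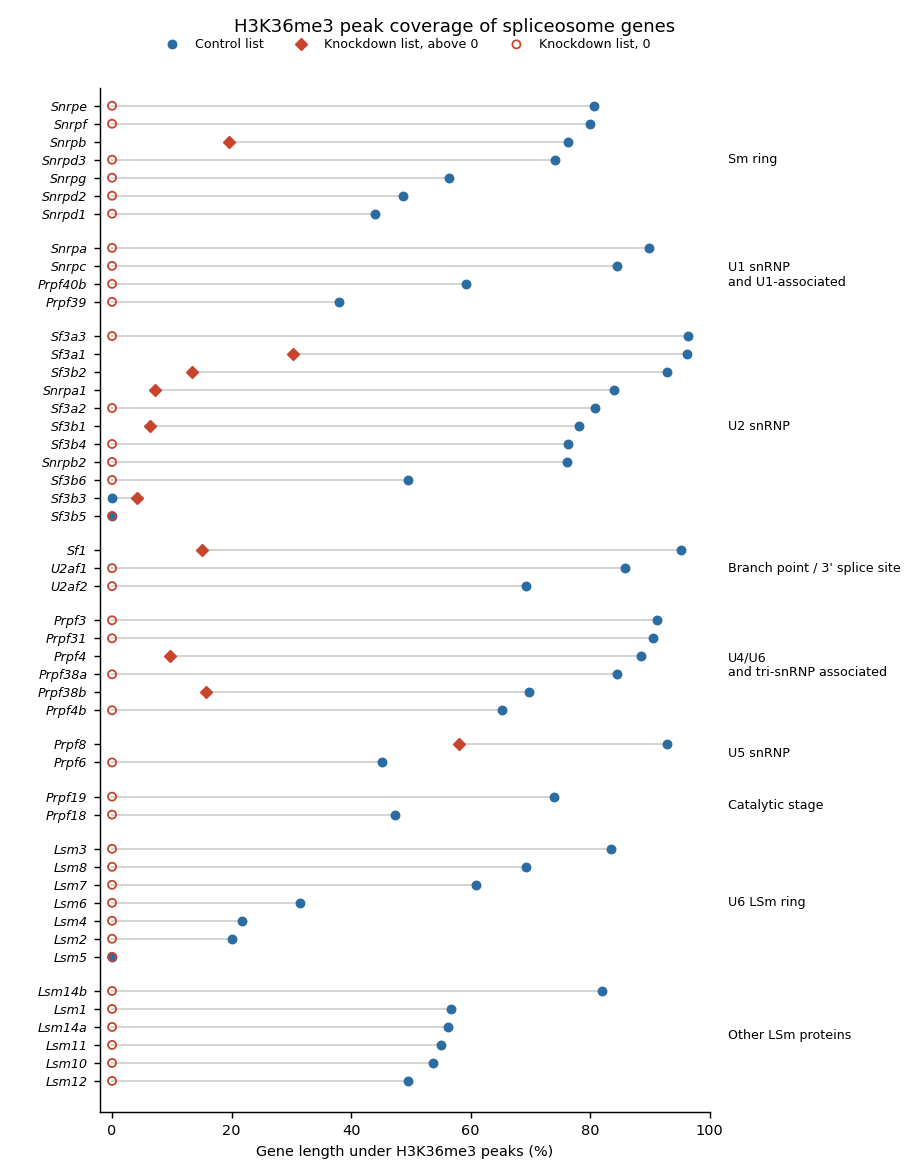
Percent of gene length under H3K36me3 peaks for the genes named in the text, grouped by role. Blue points give the control list and red symbols the knockdown list, diamonds above 0 and open circles at 0. Control points reach 96.3% and only Prpf8 is above 50% in knockdown.

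In summed length, peaks covered 498.8 kb of these genes in control and 34.8 kb in knockdown, 14.3 times less, and over all protein-coding genes the ratio was 36.1. Prpf8 alone held 13169 bp of the knockdown total, and without it the ratio was 22.1.

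The knockdown counts were also read among genes with control coverage. These sets share a minimum and not a level: with at least 10% in control, the median control covered share was 74.1% in 46 spliceosome genes and 48.0% in 7794 of all genes. Among genes covered over at least 10% in control, 6 of 46 spliceosome genes (13.0%, 4.94 to 26.3) and 4.52% of all such genes also reached 10% in knockdown. Among genes covered over at least 50% in control these values were 6 of 35 (17.1%, 6.56 to 33.6) and 7.72%. The interval for the spliceosome genes thus includes the value of all genes at 50% control coverage and lies just above it at 10%. Counting any covered base pair, 9 of 46 (19.6%, 9.36 to 33.9) and 10.4% had knockdown coverage. By length the counts were taken over all genes, with or without control coverage. Over 20 kb, 5 of 14 spliceosome genes had a knockdown-covered base pair, as did 765 of all 10037 genes. At least 10% control coverage was found in 13 of those 14 and 3648 of those 10037 genes. In genes up to 10 kb the knockdown counts were 2 of 18 and 149 of 7925, and at least 10% control coverage was found in 16 and 2200.

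**Figure D2:**
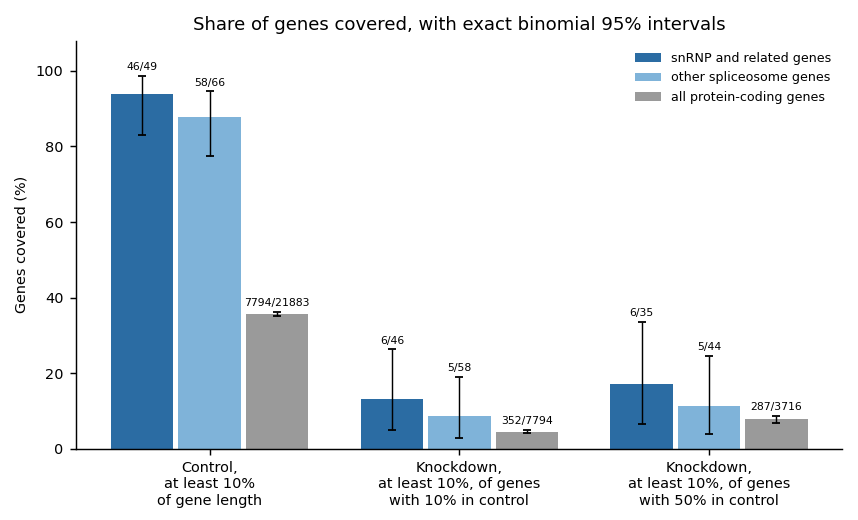
Share of genes covered in control, and share covered in knockdown among those with at least 10% or at least 50% control coverage, for the 49 genes, 66 other spliceosome genes and all protein-coding genes. Bars start at 0, error bars are exact binomial 95% intervals, and the counts stand above. With at least 10% control coverage the interval of the dark blue bar, 4.94 to 26.3%, lies just above the grey bar at 4.52%. Among the most covered genes the interval of the dark blue bar, 6.56 to 33.6%, includes the grey bar at 7.72%.

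The Sm proteins form the heptameric ring that is loaded onto the U1, U2, U4 and U5 RNAs. All 7 Sm genes were covered in control, with a median of 74.2%. Snrpe (80.7%), Snrpf (79.9%), Snrpb (76.2%) and Snrpd3 (74.2%) were covered over most of their length, and Snrpg (56.4%), Snrpd2 (48.6%) and Snrpd1 (44.1%) over less. Snrpf overlaps Ccdc38, and both of its control peaks also touched another protein-coding gene. Snrpb, which encodes SmB, was the only Sm gene with a knockdown peak. That gene lies on chromosome 2 at 130171636 to 130179382 (mm10). Its single control peak of 8940 bp held 611 tags at a caller fold of 5.10 over local background. The knockdown peak of 1511 bp held 63 tags at a fold of 4.76 and left 19.5% of the gene covered.

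None of the 5 U1 genes had knockdown coverage. Snrpa (89.9%) and Snrpc (84.5%), which encode the A and C proteins particular to U1, were covered almost throughout in control. Prpf40b (59.2%) and Prpf39 (38.0%), whose proteins associate with U1 more loosely, were covered less. Prpf39 overlaps Fkbp3, and its longest control peak, of 10936 bp, also touched that gene. The longest control peak of Prpf40b, of 11194 bp, also touched Fmnl3.

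The 11 U2 genes contained both the most covered genes and 5 of the 10 genes with a knockdown peak. Control coverage was found in 9 of the 11, and 2 reached 10% in knockdown. U2 binds the branch point through the SF3a and SF3b complexes, and Snrpa1 and Snrpb2 encode its A′ and B″ proteins. Sf3a3 had the highest control coverage of all 49 genes, 96.3%, under 1 peak of 18823 bp with 1238 tags, and no knockdown peak. Sf3a1, of the same complex, had peaks over 96.1% of its length in the control list and 30.3% in the knockdown list. Sf3a2 (80.9%), Sf3b4 (76.3%), Snrpb2 (76.2%) and Sf3b6 (49.6%) had control peaks only. The single control peak of Sf3a2 also touched Amh.

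Sf3a1, on chromosome 11 at 4160354 to 4182541, had a control peak of 21264 bp with 1605 tags and a fold of 6.25. Inside it lay 4 knockdown peaks of 1167 to 2586 bp, with 54, 42, 102 and 51 tags. Their summits were spread from 7.62 to 18.6 kb from the gene start. Sf3b2 (chromosome 19, 5273921 to 5295457) was covered over 92.9% in control, and 13.3% remained under 2 knockdown peaks of 50 and 52 tags. Sf3b1, which encodes the branch point-binding scaffold of SF3b, is 42333 bp long and was covered over 78.1% by 4 control peaks. It had 2 knockdown peaks of 44 and 48 tags over 6.36% of its length. Snrpa1 went from 83.9% to 7.26%, under 1 knockdown peak of 36 tags, the lowest tag count among the knockdown peaks of these genes.

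Sf3b3, which encodes another scaffold protein of SF3b, was the only one of the 49 with knockdown coverage and none in control, a pattern found in 0.489% of all protein-coding genes. It spans 36316 bp of chromosome 8 from 110810491 to 110846806, on the reverse strand. No control peak touched it, although Cog4, which overlaps its start, had a control peak that begins 2507 bp away. The knockdown peak of 1741 bp held 62 tags at a fold of 3.37 and a score of 62.6, with its summit at 98.9% of the gene length from the start, so it lay at the 3′ end and covered 4.09% of the gene. Sf3b5, a gene of 734 bp, had no coverage in either list, but a control peak lay 141 bp away.

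Recognition of the branch point and of the 3′ splice site by SF1 and the U2AF dimer comes before U2 joins. Sf1 was covered over 95.1% in control by 1 peak of 14465 bp with 1123 tags and a fold of 7.60. A knockdown peak of 2164 bp with 82 tags, with its summit 8.60 kb from the start, left 15.1% covered. U2af1 (85.8%) and U2af2 (69.3%), the genes of the small and large U2AF subunits, each had 1 control peak, of 784 and 878 tags, and no knockdown peak.

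The 6 genes of U4/U6 and of proteins that travel with the tri-snRNP had the highest median control coverage of the 9 classes, 86.4%. Prpf3 (91.2%) and Prpf31 (90.5%), whose proteins bind the U4/U6 duplex and the U4 RNA, and Prpf38a (84.4%) and Prpf4b (65.3%), a kinase gene, had no knockdown peak. Prpf4, whose protein pairs with PRPF3, went from 88.4% to 9.70%, with 1216 tags in its control peak of 16122 bp and 69 in its knockdown peak of 1769 bp. Prpf38b went from 69.7% to 15.8%, with 460 and 51 tags. Both knockdown peaks lay in the later part of the gene, at 76.1% of the length in Prpf4 and 83.4% in Prpf38b. Prpf38a overlaps Orc1, and both of its control peaks also touched another gene.

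The U5 class held the gene with the most residual mark in the full knockdown list. PRPF8, its largest protein, cradles the catalytic centre of the spliceosome, and PRPF6 bridges U5 to U4/U6. Prpf8 lies on chromosome 11 at 75486777 to 75509447. A single control peak of 21629 bp with 1874 tags at a fold of 7.99 began 1620 bp after the gene start, ran 578 bp past the end and covered 92.9% of the gene. In knockdown 4 peaks remained inside that interval and covered 58.1%. They held 198, 145, 205 and 48 tags over 4201, 2971, 4592 and 1405 bp, at folds of 5.73, 5.19, 5.62 and 4.94. The first 3 had the highest scores of all knockdown peaks over the 49 genes, 304.3 to 378.5. In the authors' table they carry FDR values of 6.56 to 9.68%, so with peaks of 5% FDR or less alone Prpf8 would be covered over 6.20%.

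Among the 10037 protein-coding genes longer than 20 kb, Prpf8 had the highest knockdown covered share, and it ranked 24 among all 21883 genes. Sf3a1 ranked 8 among the longer genes and 83 among all. These ranks use all peaks of the list, and ranks with peaks of 5% FDR or less alone were not computed. With those peaks Sf3a1, at 30.3%, was covered more than Prpf8, at 6.20%. Prpf6, the other U5 gene, is 54343 bp long and carried 8 control peaks, which covered 45.2% of it. The last of these also touched Gm29797. Prpf6 had no peak in the knockdown list.

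The catalytic-stage genes Prpf19 (74.0%), which encodes the ubiquitin ligase of the activation complex that carries its name, and Prpf18 (47.3%), a factor of the second step, had control peaks only.

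The LSm proteins 2 to 8 form a ring on the U6 RNA. Of these 7 genes 6 were covered in control, with a median of 31.4%, the lowest of all classes, and none had a knockdown peak. Lsm3 (83.5%), Lsm8 (69.3%) and Lsm7 (61.0%) were covered over most of their length, and Lsm6 (31.4%), Lsm4 (21.8%) and Lsm2 (20.1%) over less. Lsm5 was at 0, with the nearest control peak 20161 bp away over Avl9. The median length of these 7 genes is 5418 bp, and any part of length in their coverage was not tested. The 18 spliceosome genes up to 10 kb had a median control coverage of 69.5%. In Lsm2 the mark began 3226 bp after the start of a gene of 4038 bp and ran 2926 bp past its end, so most of the peak lay downstream.

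The remaining LSm genes encode LSM1 of the cytoplasmic decay ring, LSM10 and LSM11 of the U7 snRNP that processes histone mRNA, LSM12, and the P-body proteins LSM14A and LSM14B. All 6 were covered in control, from 49.5% in Lsm12 to 82.0% in Lsm14b, and none in knockdown. Lsm1 (56.8%), Lsm14a (56.3%), Lsm11 (55.1%) and Lsm10 (53.7%) lay close together. A control peak at the end of Lsm14b also touched Psma7.

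All but 1 of the knockdown peaks over these genes lay inside control peaks. There were 18 knockdown peaks over 10 genes, and 17 of them were under control peaks over 100% of their length, the exception being that of Sf3b3. The other 9 genes were covered over 69.7 to 96.1% in control, so most places in them lie under a control peak. The same share over the knockdown peaks of all genes was not computed. The 18 knockdown peaks had a median length of 1486 bp, with a range of 1035 to 4592 bp, and 13 were shorter than 2000 bp. Tag counts ranged from 36 to 205 and caller folds from 3.31 to 5.73. A score of 100 or more was reached by 5 of the 18, 3 of them in Prpf8, 1 in Sf3a1 and 1 in Snrpb. Over all protein-coding genes 439 of 1415 knockdown peaks had such a score. The median length of those 1415 peaks was 1615 bp and their median fold 4.11, against a median fold of 3.97 in the 18.

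Tag density, the tags per kb of peak, was divided by the mean over the caller's effective genome, 19.4 kept tags per kb in control and 15.7 in knockdown. The 101 control peaks that touched the 49 genes had a density of 3.15 times the genome mean (3.11 to 3.18) and the 18 knockdown peaks of 2.54 times (2.41 to 2.68), a ratio of 0.808. Over peaks in all protein-coding genes the densities were 2.79 and 2.54 times, a ratio of 0.910. Each of the 17 knockdown peaks that lay in a control peak was less dense than that control peak, with ratios from 0.486 to 0.760 and a median of 0.637. The intervals differ and each list had to pass its own threshold, so these ratios do not compare the mark base by base.

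Control density differed among the genes with a knockdown peak. When the 46 genes with control peaks were ranked by control density, 6 of the 10 densest had a knockdown peak, 3 of the 26 in between and none of the 10 sparsest. The densest were Prpf8 (4.47 times the genome mean), Sf1 (4.01 times), Prpf4 (3.89 times), Snrpe (3.76 times) and Sf3a1 (3.74 times), of which only Snrpe had no knockdown peak. Sf3b1 (3.03 times) ranked 23 and Snrpa1 (2.82 times) ranked 30, and Sf3b3 had no control peak to rank. The median density was 3.53 times the genome mean (range 2.82 to 4.47) in the 9 genes with peaks in both lists and 2.86 times (2.31 to 3.76) in the 37 with control peaks only, so the groups overlapped. The 9 genes were also longer, with a median of 18229 against 12068 bp. Their longest control peak had a median of 16122 bp against 5884 bp. The highest control score of a gene went the other way, with a median of 418.8 in the 9 genes and 515.4 in the 37. The ranges overlapped in these measures too. All points come from the same pair of merged lists, and the part of gene length in this pattern was not tested. The ranking and these medians were not computed over all protein-coding genes, so whether the pattern is particular to spliceosome genes was not examined.

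**Figure D3:**
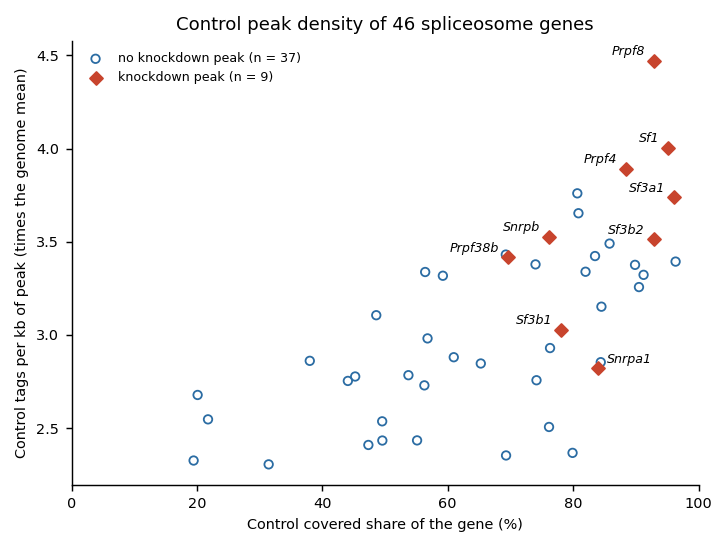
Control tags per kb of peak, as times the genome mean, against control covered share in percent, for the 46 genes with a control peak. Red diamonds are the 9 genes that also had a knockdown peak, with a median of 3.53 against 2.86 for the open circles, and the 2 groups overlap.

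Along the gene the mark was low at the start and filled the rest. The 37 genes with a known strand and at least 10% control coverage were cut into 5 equal parts from the start to the end of transcription. Mean control coverage was 25.9% in the first part and 69.7%, 84.6%, 89.4% and 89.9% in the following ones. Over all 6342 such protein-coding genes it went from 18.1% to 68.2%. In knockdown the means were 1.00%, 4.24%, 4.22%, 8.15% and 3.45%, and for all genes they ranged from 0.248% in part 1 to 2.19% in part 4. Part 4 was thus highest in both sets. Of the 37 genes 7 had knockdown coverage in part 4 and 2 in part 1, and of the 6342 genes 314 and 70.

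**Figure D4:**
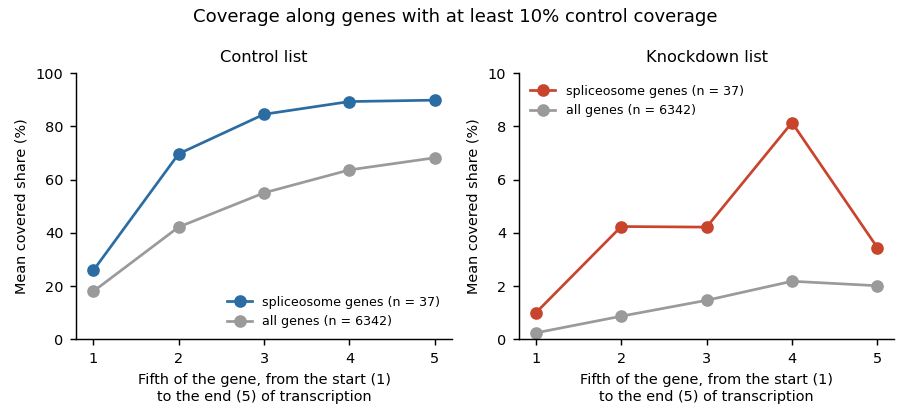
Mean covered share in 5 equal parts of the gene, from the start to the end of transcription, for spliceosome genes and all protein-coding genes with at least 10% control coverage. The left panel shows the control list and the right panel the knockdown list on a scale of its own. In control the spliceosome genes climb from 25.9% to 89.9%. In knockdown part 4 is highest in both sets, at 8.15% in spliceosome genes and 2.19% in all genes.

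In 36 of 37 genes with a strand and a control peak, the first covered base pair lay downstream of the gene start. The distance had a median of 1663 bp over all 37 genes and was 1000 bp or more in 30. At the other end 34 of the 37 were covered up to the gene end. The control peak ran past it by a median of 1404 bp over all 37, with genes not covered to the end counted as 0. The distance to the first covered base pair was shortest in Sf3a1 (430 bp) and Sf3a3 (642 bp), setting aside Prpf39 at 0, and longest in Lsm14a (15051 bp). These counts and distances at the gene ends were not computed over all protein-coding genes.

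Start windows, from 250 bp before to 50 bp after the start, were almost free of peaks. Of 47 RefSeq windows for 39 of these genes, 2 had a control-covered base pair (4.26%, against 3.80% over all genes with at least 10% control coverage), 1 at an inner start of Prpf19 and 1 at Prpf39. Prpf39 also had the only window under a knockdown peak, which 0.125% of the windows of all such genes had. Here the lists held nearly the same interval, 65034253 to 65036481 in control (136 tags, fold 7.78) and 65034238 to 65036309 in knockdown (88 tags, fold 4.83) on chromosome 12. The knockdown peak lay upstream of Prpf39 and touched no protein-coding gene, and it covered 75.3% of the window. Its density was 2.70 times the genome mean and that of the control peak 3.15 times. The body of Prpf39 itself had no knockdown coverage.

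The 250 bases before the start are shown for 3 genes that differ in these lists, Prpf8 with the most knockdown coverage, Sf3a3 with the most control coverage and no knockdown peak, and Prpf39 with a control peak over its start and a knockdown peak just upstream. They are the forward strand of GRCm38.p6 from RefSeq, 5′ to 3′, at chr11:75486527-75486776, chr4:124714611-124714860 and chr12:65036084-65036333. Capitals mark matches on either strand to the GC box GGGCGG, the CCAAT box (letters as named), the ETS-type core CCGGAAG or the TATA box TATAAA, none of which contains another.
Prpf8: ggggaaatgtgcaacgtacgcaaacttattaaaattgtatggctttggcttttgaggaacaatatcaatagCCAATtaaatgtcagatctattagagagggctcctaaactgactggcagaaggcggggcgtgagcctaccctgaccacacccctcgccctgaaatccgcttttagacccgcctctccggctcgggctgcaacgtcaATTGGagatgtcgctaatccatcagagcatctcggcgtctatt
Sf3a3: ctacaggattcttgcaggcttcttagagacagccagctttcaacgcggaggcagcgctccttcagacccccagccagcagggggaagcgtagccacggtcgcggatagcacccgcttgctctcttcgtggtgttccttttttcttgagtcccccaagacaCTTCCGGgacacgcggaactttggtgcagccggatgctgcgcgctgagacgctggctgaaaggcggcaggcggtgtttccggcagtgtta
Prpf39: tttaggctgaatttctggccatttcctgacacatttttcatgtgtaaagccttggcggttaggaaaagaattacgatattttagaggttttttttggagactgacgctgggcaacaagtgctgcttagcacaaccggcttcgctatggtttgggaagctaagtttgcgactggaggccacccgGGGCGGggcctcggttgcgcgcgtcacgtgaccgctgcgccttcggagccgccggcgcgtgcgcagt
Prpf8 matched the CCAAT box on both strands, Sf3a3 the ETS-type core and Prpf39 the GC box. Over the 47 windows of the spliceosome genes the GC box occurred in 55.3% and the CCAAT box in 44.7%, compared with 42.6% and 35.4% of the 21262 windows of all protein-coding genes. The ETS-type core occurred in 29.8% against 8.98% of all windows and 16.0% of those of genes with at least 10% control coverage. The TATA box occurred in 4.26% against 11.6% of all windows. In the windows of those covered genes the GC box occurred in 59.8%, the CCAAT box in 36.4% and the TATA box in 5.86%. A match describes the letters only.

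The other spliceosome genes, a fixed list of 66 helicases, PRPF19-associated, SMN complex, minor spliceosome and further snRNP genes, was read in the same way. In control 58 of 66 (87.9%, 77.5 to 94.6) were covered over at least 10%, with a median of 74.4%, and in knockdown 5 of 66 (7.58%, 2.51 to 16.8). Any knockdown coverage was seen in 10 of the 66. The most covered in knockdown were Gemin4 (64.9% in control, 31.9% in knockdown), a gene of the SMN complex that loads Sm rings, and Txnl4a (84.9% and 23.4%), which encodes a small U5 protein. Tfip11 (80.2% and 13.3%), Snw1 (82.5% and 12.9%) and Rbm22 (90.2% and 11.1%) followed. Txnl4a, Tfip11 and Snw1 each overlap another protein-coding gene, and which gene their peaks belong to was not examined. The 7 Snrnp genes were covered over 49.98% (Snrnp35) to 96.5% in control and none had knockdown coverage. Snrnp200 (96.5%), the U5 helicase gene, Snrnp70 (95.9%), a U1 gene, and Snrnp48 (92.1%), of the minor spliceosome, were the most covered genes of the list without a knockdown peak. Among genes of U5 proteins over both lists, Prpf8 had 58.1% in knockdown, Txnl4a 23.4%, Ddx23 8.61% (81.7% in control) and Eftud2 4.14% (11.0% in control). Eftud2, like Txnl4a, overlaps another protein-coding gene. Prpf6, Snrnp40, Snrnp200 and Cd2bp2 (79.4% in control) had none.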

How the data were processed

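H3K36me3 ChIP and input libraries, 2 replicates of each per condition, were merged by the authors before peak calling, per the file headers, so each condition has 1 peak list. The submitters' processing notes name FastQC 0.11.5, Bowtie 1.1.2 and the build mm10. Per the file headers, MACS 1.4.2 called peaks at a p cutoff of 1e-05 with 1 tag kept per position. Per the file headers, each peak has a tag count, not normalized, a score (minus 10 times the log10 of the p-value), a fold (ChIP signal as a ratio to the local background) and a false discovery rate (FDR) in percent. These are the authors' own values. The deposited BED files hold exactly the peaks with an FDR of 5% or less.

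The covered share of a gene is the percent of its length, from RefSeq start to end (GRCm38.p6, 21883 protein-coding genes), under peaks, and a gene counted as covered at 10% or more. Of the 49 genes, 39 had a strand and 47 start windows in the RefSeq promoter table. Density is tags per kb of peak over the mean kept tags per kb of the effective genome. Scripts ran in Python 3.11.15 with pandas 2.3.3 and scipy 1.17.1, and interval counting was tested on simulated data. Intervals are exact (Clopper-Pearson for shares, Poisson for densities), at 95%, and cover counting error only. No test between conditions was possible on 1 list each. Values were recomputed with filters on peak score or FDR, other gene calls, a shortened control list, extended genes and without overlapping genes.

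The genes, their grouping by role and the list of other spliceosome genes were chosen with earlier results of these data known. One gene of the U1 class enters the counts and medians, but its own values are not reported here. The genes named are all those with knockdown-covered or no control-covered sequence, the most and least covered of each class, and those needed to account for the rest. Density ranks, start-window motifs and the values without Prpf8 were added after values had been seen.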

Additional observations from a re-analysis of the deposited data

How the results depend on the processing

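No paired analysis was possible because replicates 1 and 2 were merged before peak calling, and for the same reason no replicate could be left out. The count of 46 genes covered in control was within 1.5 times, at 35 to 47, under every alternative but the control list shortened to its 3040 top-scoring peaks, which gave 19 genes and a median control covered share of 0. That shorter list holds no peak over Prpf8, whose control peak of fold 7.99 has a score of 402.5, while the control peak of Prpf4 with fold 7.60 scores 1132. The count of 6 genes covered in knockdown was 3 with scores of 100 or more, 5 at an FDR of 5% or less and 2 at 1% or less. It was 1 at 50% coverage, and 10 both with any covered base pair and with a peak midpoint. FDR did not follow score in the knockdown list. The 3 Prpf8 peaks with scores of 304.3 to 378.5 had FDR values of 6.56 to 9.68%, while the Prpf38b peak scored 53.1 at 0.94%. The 1% filter kept Prpf38b and Sf3a1 and dropped Prpf8, so it did not select the highest-scoring peaks. The share covered in both lists, 13.0%, was 6.52% with scores of 100 or more, 4.35% at an FDR of 1% or less and 2.86% at 50% coverage, and 19.6% with any covered base pair and 21.95% with a peak midpoint. The density ratio was 0.892 with scores of 100 or more, and the ratio of covered lengths was 22.1 without Prpf8, an alternative added after seeing the data. Sf3b3 had no knockdown peak with scores of 100 or more or at an FDR of 1% or less. The median knockdown share was 0 under the 6 alternatives in which it was computed. The ChIP depth was lower in knockdown, and the input tracks were not used here.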
